A study of Mus musculus with 6 samples.

Results

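The genes described here are those of the MiT/TFE transcription factors Tfeb, Tfe3 and Mitf, of folliculin (Flcn) and its partner Fnip1, of the Rag GTPases Rraga, Rragc and Rragd, and of the kinase Mtor with its partner raptor (Rptor). A probe set, a group of short oligonucleotides that reads 1 transcript, was included where the platform annotation pairs it with exactly 1 gene and that gene is among these 10. This gave 21 of the 45101 probe sets, for 10 of the 18193 genes named in this way. Ba/F3-N is a mouse bone marrow line transformed with the oncogenic NRAS-G12D. RNA was taken from 3 samples given 1 µM N-arachidonoyl dopamine (NADA) for 12 hours and from 3 samples given the same volume of vehicle for 12 hours, so that both groups carry NRAS-G12D and differ in the labels by NADA alone. Nothing in the labels says that replicates came from separate cultures or gives a batch, so p-values measure the spread between arrays, which may be technical.

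As background, mTORC1 is a kinase complex that promotes growth when nutrients are present. Amino acids bring it to the lysosome through heterodimers of RagA or RagB with RagC or RagD, anchored there by the Ragulator complex. Folliculin with FNIP1 or FNIP2 promotes GTP hydrolysis by RagC and RagD, which lets mTORC1 phosphorylate TFEB and TFE3 and keeps them in the cytoplasm. Unphosphorylated TFEB, TFE3 and MITF enter the nucleus and bind E-box sequences of lysosomal and autophagy genes, and they are also known to raise the transcription of Flcn, Fnip1, Fnip2, Rragc and Rragd. The arrays measure transcripts only and carry no information on phosphorylation or localisation.

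With the values as deposited, 5 of the 10 genes rose after NADA: Flcn 3.03-fold, Fnip1 2.36-fold, Mitf 1.70-fold, Rragc 1.64-fold and Tfe3 1.38-fold. Tfeb, Rraga, Mtor and Rptor were measured and not called, and the remaining gene, Rragd, lay below the limit used for dim probe sets. Calls rest on limma with a Benjamini-Hochberg adjusted p below 0.05 over the 10520 genes whose brightest probe set had a mean intensity of at least 39.01, the median of all probe sets, and rose or fell is used for such calls. Of these genes 73.5% were called, 35.9% higher and 37.6% lower, so that 5 higher and 0 lower among 9 is to be read against a background in which most genes moved. The groups did not overlap for 6 of the 9, against 76% of all genes. The values are relative to the other genes on each array. In RNA from a whole culture, more transcript per cell and more cells carrying the transcript cannot be told apart.

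Control probe sets were not level between the groups, and this touches each call below. On the log2 scale the bacterial poly-A control RNAs averaged 8.72 ± 0.21 on NADA arrays and 8.14 ± 0.01 on vehicle arrays (SD, 3 arrays each). For β-actin the 3' probe set exceeded the 5' one by 1.06 ± 0.05 under NADA and by 0.67 ± 0.04 under vehicle. Scaled to those RNAs (the poly-A scale), the log2 fold changes fell by 0.58 throughout, the median of all genes was -0.57, and 83% of genes were called, 7.04% higher and 76% lower (741 and 7992 genes, in place of 3775 and 3958). Under that scaling Flcn (log2 fold change 1.02, limma adjusted p = 1.02e-16) and Fnip1 (0.66, 2.47e-07) were still higher. Mitf (0.18) and Rragc (0.13) were no longer called, and Tfe3 turned to -0.12 and was not called (limma adjusted p = 0.356). Tfeb, Rraga, Mtor and Rptor were called lower, at -0.62, -0.52, -0.63 and -0.68, close to the median of all genes there. The offset of each array was shared by all genes, so limma p-values and counts of calls on that scale do not measure the uncertainty of the offsets. The part of these control differences in the results was not tested.

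**Figure D1:**
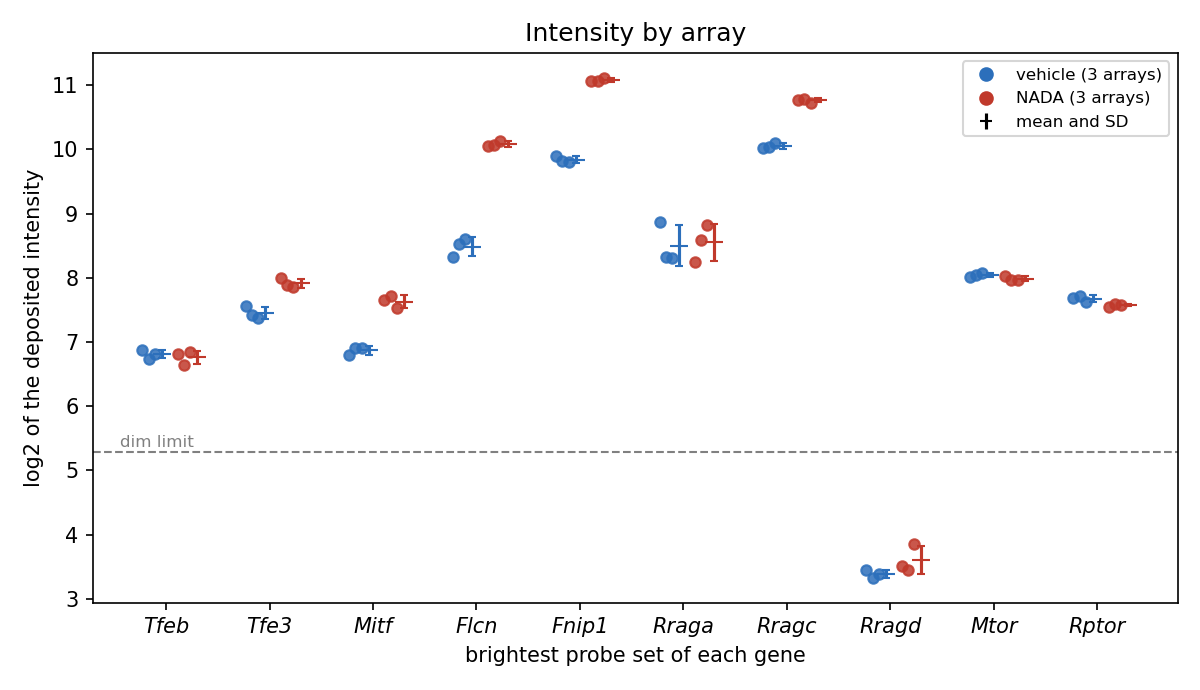
Log2 of the deposited intensity (y axis) of the brightest probe set of each gene (x axis) on each of 3 vehicle and 3 NADA arrays, with the group mean and SD beside the points and a dashed line at the dim limit of 39.01. The NADA points of Tfe3, Mitf, Flcn, Fnip1 and Rragc lie above all vehicle points with the values as deposited, those of Tfeb, Rraga and Mtor overlap vehicle, and Rragd lies below the dim limit. Heights are not comparable between genes, since probe sets differ in how strongly they bind.

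Folliculin is the GTPase-activating subunit for RagC and RagD. Its brightest probe set, 1438167_x_at, read 1056, 1073 and 1124 in NADA replicates 1 to 3 and 319, 370 and 388 in vehicle. The lowest NADA array thus stood far above the highest vehicle array. The log2 fold change was 1.60 ± 0.06 (SE, 3 arrays per group; limma adjusted p = 7.16e-13), and 1.45% of the genes tested had a higher one. Probe sets with the suffix x can bind several transcripts, so the second probe set of Flcn, 1423663_at, which has no such suffix, is of use here. It read 361, 343 and 308 in NADA and 135, 144 and 137 in vehicle, again without overlap, a log2 fold change of 1.28 ± 0.06. The third, 1456744_x_at, was dim, with means of 12.0 ± 3.08 and 7.15 ± 0.40 (SD, n = 3), and its groups did not overlap either.

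FNIP1 binds folliculin and is needed for its activity, and in mice it is known to be required for B cell development. Its brightest probe set, 1434405_at, read 2131, 2149 and 2212 in NADA and 952, 906 and 891 in vehicle. The spread within each group was small beside the distance between the groups. The log2 fold change was 1.24 ± 0.04 (limma adjusted p = 3.60e-14), with 2.91% of genes above it. The other 2 probe sets rose as well. The log2 fold change was 1.14 ± 0.06 for 1449668_s_at, where NADA replicate 3 (1967) stood above the other two (1598 and 1592), and 0.87 ± 0.06 for 1419924_at (434 ± 16.8 in NADA and 237 ± 15.5 in vehicle). Fnip2, which encodes the other partner of folliculin, rose too, by 0.78 ± 0.05 on the log2 scale from a mean of 274 to 469, and was 0.20 and no longer called on the poly-A scale (limma adjusted p = 0.113).

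Among the MiT/TFE factors, bHLH leucine zipper proteins that bind DNA as dimers with each other, Mitf and Tfe3 were called and Tfeb was not. Mitf, the factor known for melanocytes, mast cells and osteoclasts, read 200.3, 211 and 184 in NADA and 111, 120 and 119.9 in vehicle. Every NADA array was above every vehicle array, and the log2 fold change was 0.76 ± 0.06 (limma adjusted p = 1.66e-08). Its dim probe set 1422025_at read 19.8, 16.7 and 14.7 against 12.9, 10.5 and 9.03, the same direction near the bottom of the scale. Tfe3, which is expressed in many tissues and acts beside TFEB, read 254, 237 and 233 in NADA and 189, 172 and 166 in vehicle. These groups did not overlap, with a log2 fold change of 0.46 ± 0.06 (limma adjusted p = 3.80e-06).

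Tfeb itself, the factor best known for the lysosomal programme, read 112, 100.2 and 114 in NADA and 117, 107 and 113 in vehicle. The 2 groups lay over each other. The log2 fold change was -0.046 with a 95% interval from -0.19 to 0.10 (limma adjusted p = 0.569), so a rise of the size seen for Tfe3 or Mitf lies outside the interval of this probe set. The within-array log2 difference of Tfeb minus Tfe3 was -1.15 ± 0.11 (SD, n = 3) in NADA and -0.64 ± 0.08 in vehicle, and that of Tfeb minus Mitf was -0.87 ± 0.19 and -0.059 ± 0.12. Each gave p = 0.1 in a two-sided exact permutation test, the smallest that 3 against 3 arrays allow, and 0.12 after Benjamini-Hochberg adjustment over the 6 pairs of genes compared. For Tfe3 minus Mitf the means were 0.28 ± 0.10 and 0.59 ± 0.16, with the same p. Such a difference within an array does not depend on a scaling that shifts all log2 values of an array alike. Tfec, the fourth factor of the family, was dim and not tested.

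Of the Rag GTPases, which signal amino acid supply as heterodimers, Rragc alone among the 3 genes here was called. Its single probe set, 1415749_a_at, read 1749, 1769 and 1694 in NADA and 1036, 1051 and 1098 in vehicle, without overlap. The log2 fold change was 0.71 ± 0.04 (limma adjusted p = 2.33e-11). Rraga, which pairs with RagC or RagD, read 303, 387 and 452 in NADA and 469, 319 and 317 in vehicle. The arrays of each group were far apart and the groups overlapped, so this probe set gives a wide 95% interval, from -0.24 to 0.34 around 0.053 (limma adjusted p = 0.741). Without vehicle replicate 1, the highest array of that group, the log2 fold change of Rraga was 0.24, still not called. The within-array difference of Rraga minus Rragc was -2.21 ± 0.31 in NADA and -1.55 ± 0.35 in vehicle (exact permutation p = 0.1, adjusted 0.12).

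Rragd, the paralog of Rragc and a well-known target of the MiT/TFE factors, stayed at the bottom of the scale in both groups. Its 3 probe sets read between 4.90 and 14.4 in NADA and between 4.93 and 10.9 in vehicle, far below the dim limit of 39.01. In a limma fit over all 45037 probe sets that are not controls, without the dim limit, their log2 fold changes were 0.21, 0.095 and -0.067 and the adjusted p were 0.177, 0.558 and 0.65. At this level the intensities do not show whether the transcript is present.

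The kinase gene Mtor read 261, 249.6 and 251 in NADA and 258, 262 and 269.9 in vehicle with its brightest probe set. The groups overlapped, and the log2 fold change was -0.054 with a 95% interval from -0.16 to 0.05 (limma adjusted p = 0.334). A second probe set, 1436267_a_at, gave 103 ± 8.52 and 103 ± 7.81 (SD, n = 3). Rptor, which encodes the subunit that recruits mTORC1 substrates, read 188, 193 and 191 in NADA and 207, 210.2 and 197 in vehicle. Each NADA array lay just under the vehicle arrays, but the difference of -0.10 (95% interval -0.21 to 0.01) was not called (limma adjusted p = 0.0955).

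For Rptor the probe sets disagreed in the call. The weaker probe set 1458472_at read 69.5, 52.3 and 50.1 in NADA and 77.8, 74.5 and 75.5 in vehicle, and was lower by -0.42 ± 0.11 on the log2 scale (limma adjusted p = 0.00391 over all probe sets). Rptor was called lower when its passing probe sets were averaged (-0.26), when the one with the largest variance was taken (-0.42), and when arrays were centred on their medians (-0.14, limma adjusted p = 0.0309). The within-array difference of Mtor minus Rptor was 0.41 ± 0.06 in NADA and 0.37 ± 0.08 in vehicle (exact permutation p = 0.5).

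**Figure D2:**
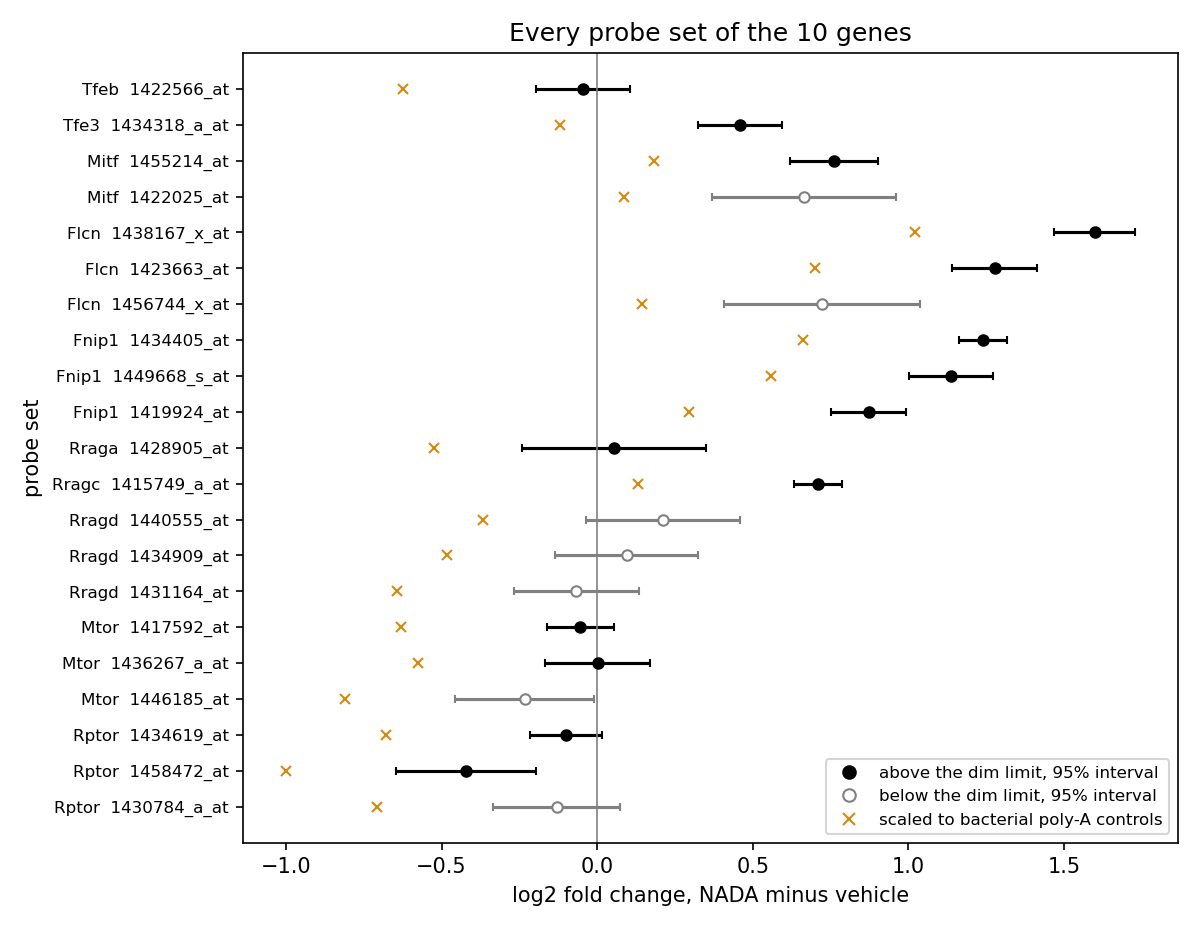
Log2 fold change of NADA minus vehicle (x axis) with its 95% interval for each of the 21 probe sets (y axis), filled above and open below the dim limit, and crosses for the values scaled to the poly-A RNAs. As deposited, all probe sets of Flcn, Fnip1, Mitf, Rragc and Tfe3 lie to the right of 0, and the crosses lie 0.58 further left, where that of Tfe3 falls below 0.

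Over all 21 probe sets 10 were called higher and 1 lower in the fit without a dim limit, in which 39.9% of probe sets were called, 20% higher and 19.8% lower. Of the 14 probe sets above the limit, 8 were higher and 1 was lower. No share was computed for all probe sets above the limit. In the fit over genes above it 73.5% were called, 35.9% higher and 37.6% lower. The groups did not overlap for 14 of the 21, against 47.8% of all probe sets. Every probe set of Flcn (3), Fnip1 (3) and Mitf (2) rose, including the dim ones. The sizes within 1 gene differed, from 0.72 to 1.60 for Flcn and from 0.87 to 1.24 for Fnip1, so the fold depends on the probe set taken. The lower end for Flcn comes from its dim probe set, and the other two gave 1.28 and 1.60. Flcn exceeded Fnip1 by 0.36 in their brightest probe sets (exact permutation p = 0.1, adjusted 0.12).

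**Figure D3:**
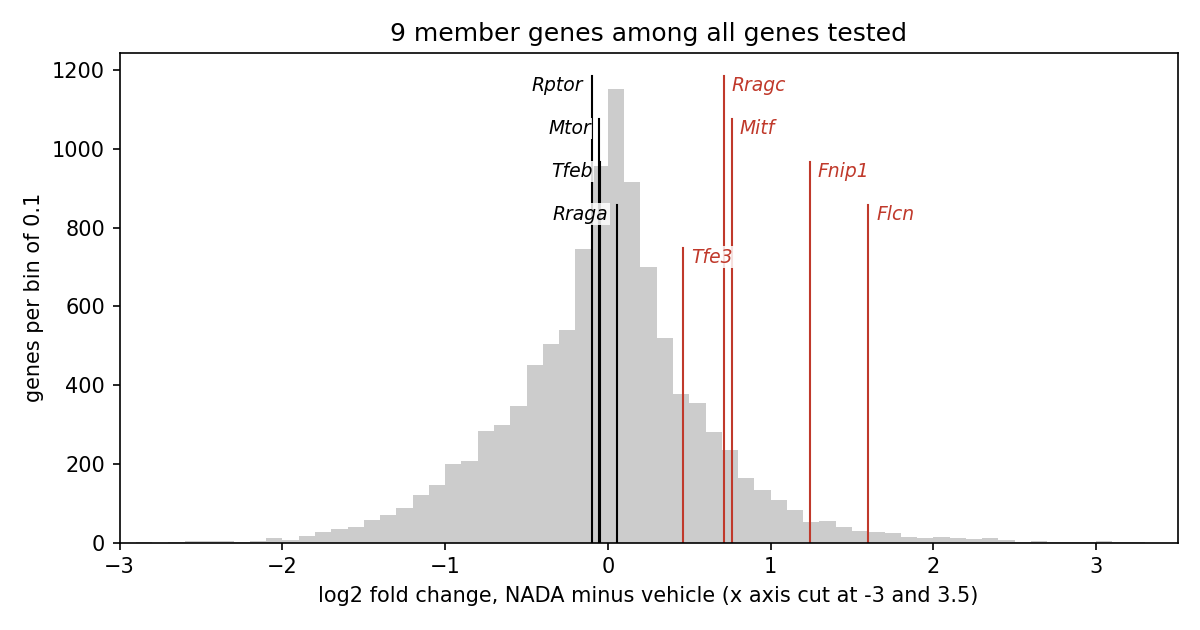
Histogram of the log2 fold changes of NADA minus vehicle of the 10520 genes tested (x axis, values as deposited, both tails cut; y axis, genes per bin of 0.1), with the 9 measured genes as lines, red where called. Flcn and Fnip1 stand in the upper tail, with 1.45% and 2.91% of genes above them, and Tfeb, Rraga, Mtor and Rptor stand in the middle of the distribution.

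The start regions of Fnip1 and Rragc share an E-box. Both are named above among genes that MiT/TFE factors raise, so this match is not independent of the choice of the genes. RefSeq windows (GRCm38.p6) from 250 bases before to 50 bases after each annotated start were found for all 10 genes and searched on both strands for CACGTG, the core E-box, and for TCACGTG, the longer form that MiT/TFE factors prefer, each match of which also contains CACGTG. Among the 10 genes only Fnip1 and Rragc held either, each with 1 match to both motifs. They are printed 5′ to 3′ on the strand of the gene, at chr11:54438064-54438123 (plus strand) and chr4:123917281-123917340 (plus strand), with the core E-box in capitals and flanked on its right by at, so that the complementary strand reads TCACGTG.
Fnip1: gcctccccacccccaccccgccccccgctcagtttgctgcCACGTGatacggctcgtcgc
Rragc: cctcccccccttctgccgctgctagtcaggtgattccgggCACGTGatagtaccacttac
The core starts 75 bases before the start of Fnip1 and 112 bases before that of Rragc. Across 27025 genes with a window, 8.09% held CACGTG and 4.29% held TCACGTG. The core CACGTG was found in 11.7% of the tested genes that were higher, 13% of those that were lower and 10.8% of those not called. TCACGTG was found in 8.45% of 3101 that were higher, 6.48% of 3270 that were lower and 6.48% of 2208 not called. The window of Flcn, the gene with the largest rise here, held neither motif, nor did those of Mitf and Tfe3, which says only that these letters are not in those windows. CACGTG is also bound by other factors, MYC with MAX among them.

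Further genes of the pathway were taken from 10 lists, which named 118 of 130 genes on the array, 107 of them above the dim limit. Among these, 61 rose and 32 fell, against 35.9% and 37.6% of all genes tested. The median change was 0.25 on the log2 scale, against 0.0089 over all genes tested. On the poly-A scale the median was -0.32, with 15 higher and 59 lower. Over all genes tested the median there was -0.57, with 7.04% higher and 76% lower. The counts of each list below, as deposited and on the poly-A scale, are to be read against the shares of the same scale. For 4 of 66 pathway genes with several passing probe sets (Cab39, Eif4e, Ppp3r1 and Tti2), probe sets were called in both directions. Over all genes with several passing probe sets this held for 187 of 4858.

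Transcripts of known TFEB and TFE3 targets were mostly higher. Among 36 tested, 32 rose and just 1 fell. The median was 0.64 as deposited and 0.057 on the poly-A scale, where 10 were called higher and 7 lower. The list was chosen with earlier results of these samples known, so its direction is not independent evidence. The autophagy receptor Sqstm1 rose from a mean of 829 to 4407 (log2 fold change 2.41 ± 0.03), the autophagosome protein Map1lc3b from 2026 to 4809 (1.25 ± 0.04), cathepsin D (Ctsd) from 869 to 2125 (1.29 ± 0.04) and the V-ATPase subunit Atp6v0d1 from 997 to 2025 (1.02 ± 0.03). All 4 were also called higher on that scale. The 1 that fell was Atg9b, at 67.5 in vehicle and 33.8 in NADA, the latter below the dim limit. Uvrag (0.066), Vps18 (0.15) and Ctsf (0.017) were not called. Of the 28 tested targets with a RefSeq window matched by symbol, all 13 with TCACGTG rose (median 0.64), and 11 of the 15 without it rose and 1 fell (median 0.64). Over all tested genes with a window, 262 of 617 with TCACGTG rose and 212 fell. Without it, 2839 of 7962 rose and 3058 fell. Of the tested genes of the other lists with TCACGTG, Lamtor1, Lamtor4 and Eif4e fell, Mcoln1 rose, and Rheb and Telo2 were not called.

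Near the Rag GTPases the Ragulator subunits moved in opposite directions as deposited. With Slc38a9 the list had 3 higher and 3 lower, and 1 higher and 5 lower on the poly-A scale. Lamtor4 (-0.82 ± 0.04), Lamtor2 (-0.58 ± 0.08) and Lamtor1 (-0.19 ± 0.03) fell. Lamtor3 (0.30 ± 0.03) and Lamtor5 (0.29 ± 0.05) rose as deposited and turned to -0.28 and -0.29, called lower, on the poly-A scale. Slc38a9, the lysosomal arginine sensor that talks to Ragulator and the Rag GTPases, rose most of this list, from a mean of 151 to 433 (1.52 ± 0.06), and was 0.94 and called on that scale.

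Among 8 partners of Mtor and Rptor in the complexes, 2 were higher and 3 lower as deposited (median -0.073). On the poly-A scale 0 were higher and 7 lower (median -0.65). Mlst8, a subunit of both mTOR complexes, fell by 0.33 and Mapkap1 (mSIN1, of mTORC2) by 0.31 on the log2 scale. The assembly factor Tti1 (-0.14) and the mTORC2 scaffold Rictor (0.12, and -0.46 on the poly-A scale) were called with small differences. Tti1 lost its call without any 1 array other than NADA replicate 1 (-0.11 to -0.14), and Rictor without NADA replicate 1 (0.081) or 2 (0.12) or vehicle replicate 2 (0.10) or 3 (0.10). The other assembly factor, Tti2, was 0.73 by its brightest probe set and -0.71 by another, so it has no settled direction. Deptor (0.041), Akt1s1 (-0.092) and Telo2 (-0.054) were not called.

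Upstream of the Rag GTPases lie GATOR1, which restrains mTORC1, GATOR2, which opposes GATOR1, and the sensors that bind them. As deposited, 6 of 13 such genes rose and 3 fell (median 0.052). On the poly-A scale 0 were higher and 8 lower (median -0.53). The 3 that fell, Seh1l (-0.75 ± 0.04), Sec13 (-0.71 ± 0.04) and Mios (-0.48 ± 0.05), encode GATOR2 subunits, of which Seh1l and Sec13 also serve the nuclear pore. Of the remaining GATOR2 subunits, Wdr59 rose (0.31) and Wdr24 was not called (-0.11), so as deposited GATOR2 did not move as a whole. On the poly-A scale Wdr59 (-0.27) and Wdr24 (-0.69) were called lower, as were Seh1l (-1.33), Sec13 (-1.29) and Mios (-1.06). There 76% of all genes were called lower. The leucine sensor Sesn2 (0.63 ± 0.06) and its relative Sesn1 (0.56 ± 0.04) rose, and were 0.049 and -0.016 on the poly-A scale, neither called. The GATOR1 subunits Nprl3 and Nprl2 rose by 0.46 and 0.38 as deposited and were -0.12 and -0.19 there, and Depdc5 (-0.18) was not called. Nprl2, Nprl3, Depdc5, Wdr59, Wdr24, Deptor, Akt1s1, Telo2, Rheb, Uvrag, Vps18 and Ctsf are named outside the rule, after their values were seen.

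Growth factor and energy signals reach mTORC1 through TSC and AMPK. The TSC subunits Tsc1 (0.51 ± 0.05) and Tsc2 (0.17 ± 0.06) and the inhibitor Ddit4 (REDD1, 0.53 ± 0.07) rose, and the RHEB-like Rhebl1 (-0.55) and the TSC subunit Tbc1d7 (-0.37) fell. Rheb, the direct activator of mTORC1, was not called (0.065). Tsc2 lost its call without NADA replicate 1 (0.11) or vehicle replicate 3 (0.16). On the poly-A scale Tsc1, Tsc2 and Ddit4 turned to -0.068, -0.40 and -0.046, and the list of 6 had 0 higher and 4 lower. Of AMPK and LKB1 genes 3 of 8 rose and 4 fell: the AMPK subunits Prkag2 (-0.96 ± 0.08), Prkag1 (-0.50) and Prkab2 (-0.42) and the LKB1 gene Stk11 (-0.40) fell. Prkaa1 (0.40), Stradb (0.17) and Cab39 (0.44, with probe sets in both directions) were called higher as deposited, and turned to -0.18, -0.40 and -0.14 on that scale, where the 8 had 0 higher and 6 lower. Stradb lost its call without NADA replicate 2 (0.12), vehicle replicate 1 (0.15) or vehicle replicate 2 (0.16). Cab39 lost it without NADA replicate 2 (0.30) and when its probe sets were averaged (0.14).

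Among 13 genes for substrates and outputs of mTORC1, 7 rose and 5 fell. The median of 0.25 became -0.32 on the poly-A scale, with 3 higher and 7 lower. Pdcd4, an inhibitor of the helicase eIF4A that is degraded downstream of S6 kinase, rose from a mean of 1019 to 3398 (1.74 ± 0.03), and the autophagy kinase Ulk1 from 137 to 409 (1.58 ± 0.05). Larp1, which controls mRNAs of ribosomal proteins, fell from 1402 to 644 (-1.12 ± 0.04), and the cap-binding protein Eif4e from 2159 to 971 (-1.15 ± 0.04). Of the 4 probe sets of Eif4e above the limit 3 fell and the weakest of them, 1444010_at, rose by 0.98. Pdcd4 and Ulk1 were still called higher on that scale, at 1.16 and 1.00.

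Among genes that set the phosphorylation, 14-3-3 docking and nuclear export of TFEB, 4 of 16 rose and 11 fell as deposited (median -0.18). On the poly-A scale 1 was higher and 15 lower (median -0.75), against 7.04% and 76% of all genes (median -0.57). The calcium channel Mcoln1, which activates calcineurin at the lysosome and is itself a known TFEB target, rose from a mean of 97.6 to 177 (0.86 ± 0.06), and was 0.28 on the poly-A scale. The kinase Akt1 (-0.93 ± 0.05), the exportin Xpo1 (-0.61 ± 0.03) and the calcineurin catalytic subunit Ppp3cc (-1.20 ± 0.07) fell. The other 3 called higher as deposited, Ppp3ca (0.25), Gsk3b (0.10) and Ppp2ca (0.071), turned to -0.33, -0.48 and -0.51 on that scale, and Ppp2ca also turned, to -0.13, when its passing probe sets were averaged. Gsk3b lost its call without NADA replicate 1 (0.077) or 2 (0.099) or vehicle replicate 1 (0.092) or 3 (0.10). Ppp2ca lost it without any 1 array other than NADA replicate 3 (0.060 to 0.076).

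**Figure D4:**
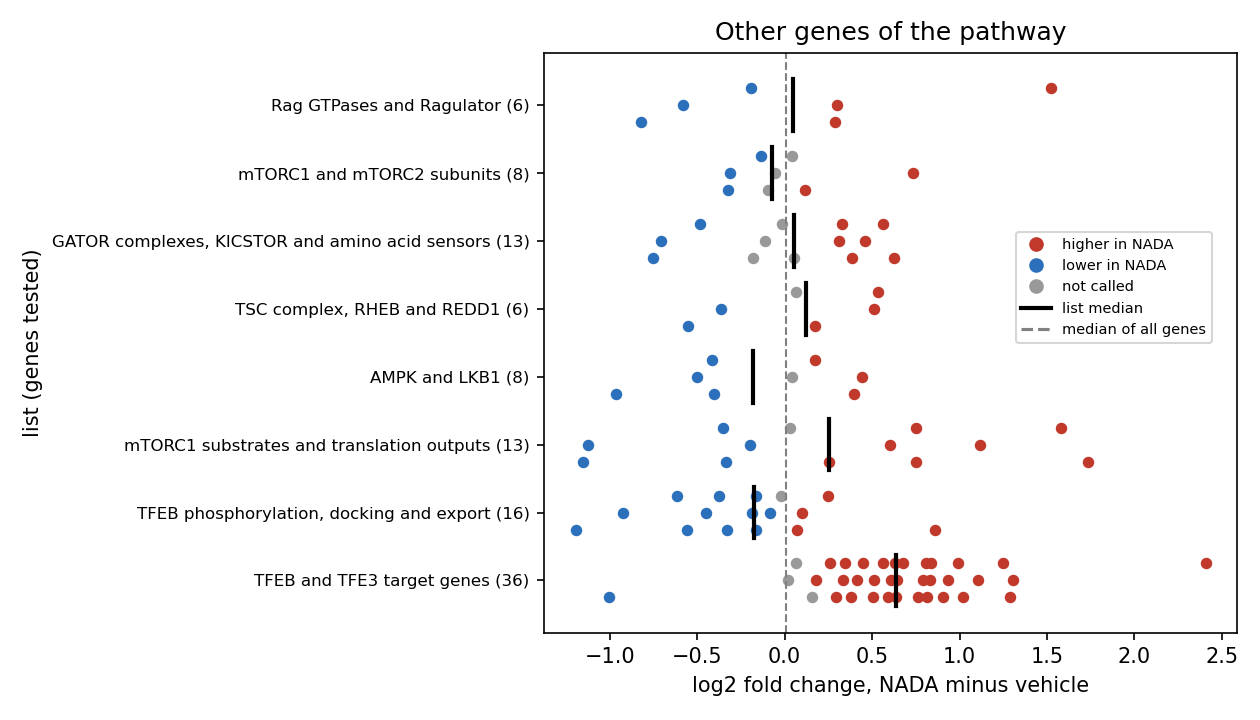
Log2 fold change of NADA minus vehicle (x axis, values as deposited) of each tested gene of 8 pathway lists (y axis, number of genes in brackets), coloured by call, with the list median as a black bar and the median of all genes as a dashed line. The targets of TFEB and TFE3 have the highest median, 0.64, or 0.057 on the poly-A scale. All 8 lists hold genes called in both directions, with 32 higher and 1 lower among the targets.

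Markers of cell types were read from their brightest probe set. Their calls come from the fit without a dim limit, in which 20% of probe sets were higher and 19.8% lower as deposited. The counts of markers called are to be read against those shares. Ba/F3 cells are commonly described as pro-B. Of 9 B lymphoid markers named on the array 3 were above the dim limit. These were Cd79b (111.6 in NADA and 81.04 in vehicle), Cd22 (55.39 and 57.91) and Igll1 (50.03 and 43.82). The others were below the limit, among them Vpreb1 (34.61 and 33.2), Pax5 (31.3 and 33.7) and Ebf1 (12.3 and 12.8). The 1 B lymphoid marker called was Cd79b, higher as deposited (0.46) and -0.12, not called, on the poly-A scale. Of 12 myeloid, mast cell and progenitor markers 5 were above it. The summed intensity of all 12 ran from 5633 to 5690 in NADA and from 3478 to 3620 in vehicle. That rise was carried by 1 gene, Csf2rb. As deposited 3 of the 12 were called higher, Csf2rb, the shared β chain of the IL-3 receptor (3337 in NADA and 990 in vehicle), Il3ra (151.5 and 106.1) and the dim Mpo (19.1 and 15.6). The mast cell protease Cpa3 (249.4 and 293.7) and the progenitor factor Gata2 (1763 and 2041) were called lower. On the poly-A scale Csf2rb was still higher (log2 fold change 1.18), while Il3ra (-0.063) and Mpo (-0.28) turned and were not called. Of 8 melanocyte and osteoclast markers, cells known for MITF, 0 were called as deposited. Just above the limit were 2, Pmel (51.76 in NADA and 45.74 in vehicle) and Ctsk (45.97 and 40.55). Tyr, Tyrp1, Dct, Mlana, Acp5 and Ocstamp read between 8.44 and 23.8. T cell and natural killer markers (2 of 5 above the limit) and fibroblast, epithelial and endothelial markers (3 of 8) had 0 called as deposited. The part of marker shifts in the results above was not tested.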

How the data were processed

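One Affymetrix mouse expression array was run for each of 6 samples, labelled with biotin after amplification, per the labels' protocols. The authors deposited 1 normalized linear intensity per probe set and array, with array medians between 37.95 and 39.11. The submitters' processing notes list MAS5 and RMA, with no version or role. Detection calls were not used here, and the number of arrays limits the precision. The values were used as log2 without further scaling.

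The 64 control probe sets stayed out of the tests. Of the others 34945 were paired with 1 gene, 932 with several and 9160 with none in the table used, and only the first were named. Probe sets with a mean under 39.01 were left out as dim, the brightest was kept per gene, and limma 3.58.1 in R 4.3.3 (lmFit, eBayes with trend, two-sided) compared the groups. A second fit took all 45037 probe sets. Steps were tested on simulated data. Alternatives covered scaling, low values, filters, the variance model, probe set choice, thresholds, the replicate number and leaving out arrays.

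The members, lists and tests were chosen with earlier results of these data known. All 10 genes are named, with up to 4 called genes of smallest p per list and any direction with fewer than 5 calls. Plots used matplotlib 3.10.9.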

Additional observations from a re-analysis of the deposited data

How the results depend on the processing

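Of 20 alternatives, Flcn and Fnip1 were called higher in all, with log2 fold changes from 1.02 to 1.66 and from 0.66 to 1.31. Mitf, Rragc and Tfe3 were called higher in all but the scaling to the poly-A RNAs, except that Tfe3 missed a minimum of 1.5-fold. That scaling, by its construction, lowers all values alike: 2 of the 10 genes were then called higher, 15 pathway genes higher and 59 lower, and Tfe3 (-0.12), Rraga (-0.52), Lamtor3 (-0.28), Lamtor5 (-0.29), Rictor (-0.46), Sesn1 (-0.016), Tsc1 (-0.068), Ddit4 (-0.046), Tsc2 (-0.40), Prkaa1 (-0.18), Cab39 (-0.14), Stradb (-0.40), Ppp3ca (-0.33), Gsk3b (-0.48) and Ppp2ca (-0.51) turned, as did the medians of the lists of Rag GTPases and Ragulator (-0.53), GATOR and sensors (-0.53), TSC (-0.46) and mTORC1 substrates (-0.32). Averaging passing probe sets turned Tti2 (-0.053), Ppp2ca (-0.13) and the Ragulator median (-0.019), and the probe set of largest variance gave -0.71, -0.42 and -0.042. A minimum of 1.5-fold left 3047 genes and 42 pathway genes (32 higher, 10 lower).

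Leaving out 1 array gave 7377 to 7749 genes called, 5 of the 10 genes higher each time, 87 to 95 pathway genes (56 to 63 higher, 31 to 32 lower) and 11 to 12 of the 21 probe sets. Among pathway genes named, Tti1, Rictor, Tsc2, Stradb, Cab39, Gsk3b and Ppp2ca lost their call without at least 1 array, and of these Rictor, Stradb, Gsk3b and Ppp2ca also with median centring. With the replicate number as a block 7755 genes were called, and 5 of the 10. Deviations of same-numbered arrays correlated at 0.164, -0.0984 and 0.0191, and those of different-numbered arrays between -0.208 and 0.185. So few values cannot show whether same-numbered samples shared a culture or a run. Dim probe sets limit what can be said of Rragd and Tfec.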
